A study of Saccharomyces cerevisiae with 16 samples.

Results

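The genes described here lie on chromosome X of the budding yeast Saccharomyces cerevisiae, that is, their systematic names start with YJL (left arm) or YJR (right arm). Of 365 protein-coding genes of that chromosome in the R64 gene table, 316 were paired with a probe set of their own. Of these, 29 were set aside: subunits of CCT, the cytosolic and mitochondrial ribosomes, the respiratory chain, the ATP synthase, the proteasome and ribosome assembly factors named by number, and PFD1, URA2, DAN1, DAN4, ANB1, CIS3, HSP150, FAR1, DAL5, ARP3 and CPS1. The remaining 287 members, 164 on the left arm and 123 on the right, were 287 of 5449 genes measured.

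Transcript levels were measured on 16 arrays, 2 for each of 8 strains, whose cultures were kept at 30 °C and reached an optical density of 0.5. CCT is a ring-shaped chaperonin that folds actin and tubulin. The labels give the wild type (WT) no CCT substitution and 1 substitution to each mutant: D96E in CCT1 (MA1), D90E in CCT2 (MA2), D91E in CCT3 (MA3), D117E in CCT5 (MA5), D89E in CCT6 (MA6), D96E in CCT7 (MA7) and D98E in CCT8 (MA8). Every strain, WT included, is labelled as carrying ura3-52, trp1, gal2, leu2 and leu2-3, the vacuolar protease alleles pep4-3, prb1-1122 and prc467, and a CBP tag at CCT6. The tag's marker is KanMX4 in WT, KanMX4 again in MA6, and URA3 in the other 6 strains, whose substituted CCT gene is itself marked with KANMX4. Nothing in the labels says whether the 2 arrays of a strain came from separate cultures.

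Labels and measured markers did not match throughout. On 4 arrays the log2 level of URA3 was 7.23 to 8.12, whereas the other 12 had 11.70 to 12.05. By this marker 6 of the 16 arrays opposed their label. These were WT replicate 2, MA2 replicate 2, MA5 replicate 1, MA8 replicate 1 and both MA6 arrays. The arrays labelled MA3 replicate 1 (11.85) and MA7 replicate 2 (12.05), on which most of what follows rests, did not oppose theirs. Strain names below mean the arrays labelled with that name. The median over the tested probe sets lay between 10.46 and 10.50 on every array.

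In a cell with 1 copy of each chromosome, the transcript level of a gene depends on its promoter and on the stability of its RNA. In budding yeast that gains a copy of a chromosome, the transcripts of most genes on it are known to rise roughly in proportion to the copies, whereas genes under feedback or environmental control can depart from that proportion. This is background. The files hold RNA levels, the number of copies of chromosome X was not measured, and its part in the values below was not tested. Nor can more RNA of a gene in every cell be told apart here from much more in some of the cells.

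Each value below is a deposited log2 level, or its deviation from the median of the same probe set over the 16 arrays. The median deviation of the 287 members was 0.75 on MA3 replicate 1 and 0.78 on MA7 replicate 2. On the other 14 arrays it lay between -0.03 and 0.02, so no other array came near those 2. The second array of each label was among them, with -0.03 on MA3 replicate 2 and -0.02 on MA7 replicate 1. Genes off chromosome X had a median of -0.06 on MA3 replicate 1 and -0.04 on MA7 replicate 2. Relative to these genes, members were 1.74-fold higher on the first array and 1.76-fold higher on the second. Without the 6 arrays that opposed their label, the member medians were 0.73 and 0.77.

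The other 15 chromosomes had medians between -0.09 and -0.03 on MA3 replicate 1 and between -0.08 and -0.02 on MA7 replicate 2. With all 316 of its genes counted, chromosome X had 0.72 and 0.77. On the 14 other arrays every chromosome, X included, stayed between -0.03 and 0.05.

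**Figure D1:**
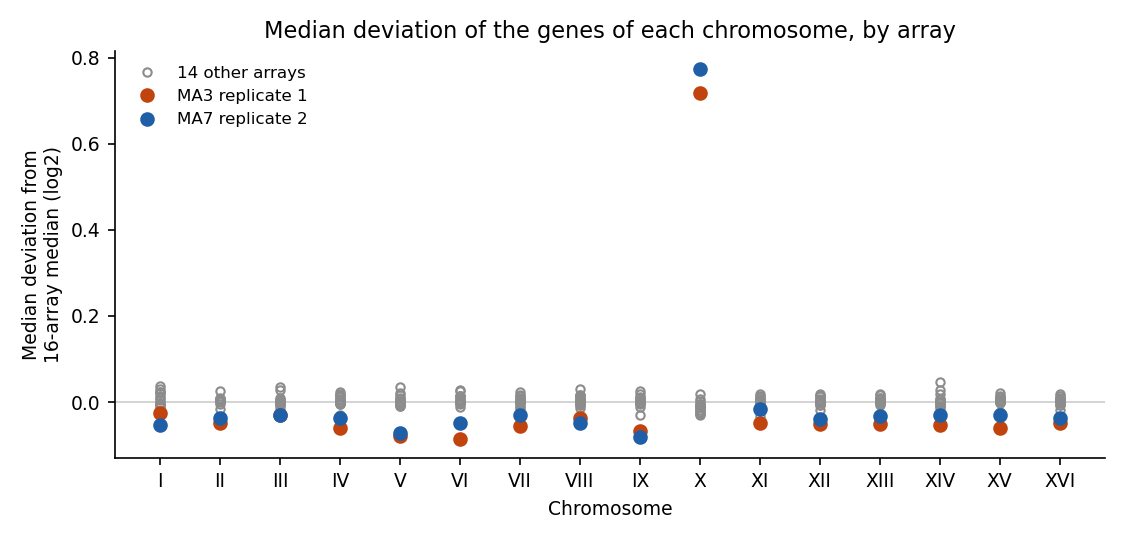
Median deviation of all measured genes of each chromosome (vertical axis, log2) on each array, with chromosomes on the horizontal axis. Chromosome X stands at 0.72 on MA3 replicate 1 (orange) and at 0.77 on MA7 replicate 2 (blue), and all other points lie between -0.09 and 0.05.

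Single members followed the chromosome. On MA3 replicate 1, 281 of 287 members lay above their 16-array median, and on MA7 replicate 2, 280 did. Both arrays were above it for 277 members, while 19.8% of genes off chromosome X were. For 248 members these arrays were the 2 highest of the 16, whereas this held for 7.27% of all genes and for 2.44% of the genes off chromosome X. Because the arrays were chosen for their chromosome X values, these counts are a description and no test. The middle 50% of the members had deviations between 0.56 and 0.87 on MA3 replicate 1 and between 0.60 and 0.91 on MA7 replicate 2.

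Across the 287 members the deviations of the 2 arrays correlated with a Pearson r of 0.82, and with 0.84 over the 264 members with a level of at least 8. The same r was 0.82 over the 5133 genes off chromosome X. These points share probe sets and the reference, and both arrays enter that reference, so no p is given.

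Along the chromosome the higher level reached from one end to the other. Members were taken in map order in 14 runs, 13 of 20 neighbours and a last one of 27. The median of a run lay between 0.59 and 0.82 on MA3 replicate 1 and between 0.60 and 0.91 on MA7 replicate 2, and between -0.11 and 0.11 on all 14 other arrays. Thus no run of members lacked the shift on either array. The left arm had a median of 0.76 on MA3 replicate 1 and 0.79 on MA7 replicate 2, and the right arm 0.73 and 0.77.

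The run from TRK1 to PAM16, on the left arm, had 0.82 on MA3 replicate 1 and 0.91 on MA7 replicate 2. The last run of the right arm, from YJR124C to AAD10, had 0.59 and 0.60, the lowest value of a run on each array. The run before it, from YJR098C to IBA57, had 0.64 and 0.70. With each member set against members of like level, the last run was still the lowest, at -0.09 and -0.15. The 10 members nearest the left end had medians of 0.71 and 0.66, and the 10 nearest the right end 0.61 and 0.56. Against members of like level these were 0.03 and 0.08 at the left end and 0.05 and -0.12 at the right.

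**Figure D2:**
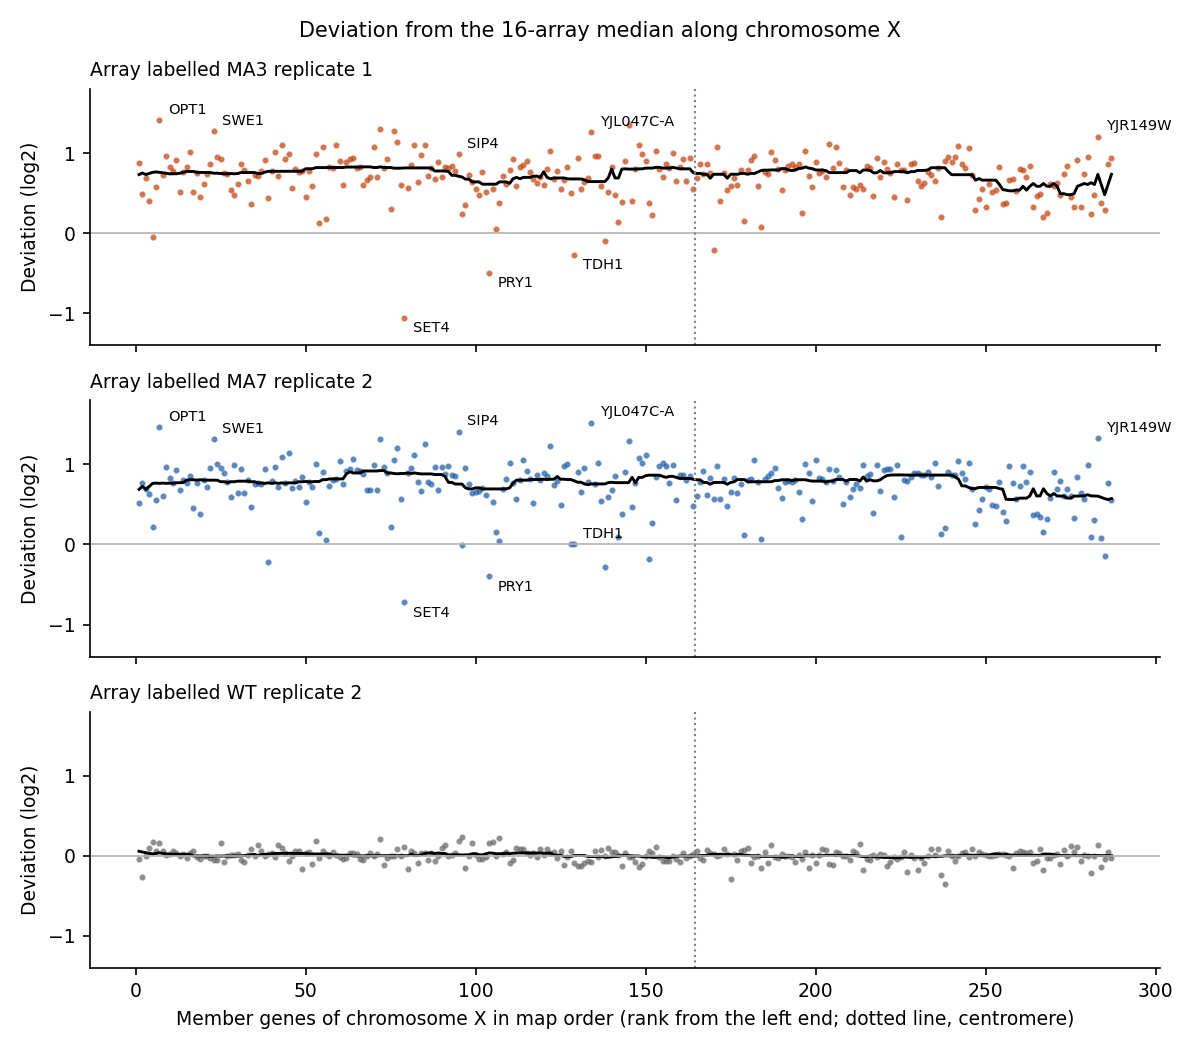
Deviation of each of the 287 members from its 16-array median (vertical axis, log2) in map order from the left end to the right end on MA3 replicate 1, MA7 replicate 2 and, for comparison, WT replicate 2; black lines are running medians over 21 members and the dotted line is the centromere. The black line stays well above 0 along the whole chromosome on the first and second panels and at 0 on the third. SET4 and PRY1 lie below 0 on the first and second panels.

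To ask which genes were higher by less or more than the chromosome, the median over members on an array was subtracted from each member's deviation there. The result is called the residual. It was at or below -0.3 (log2) on both arrays for 33 of 287 members, where 5.77% of genes off chromosome X had such a residual from their own median. It was at or above 0.3 on both arrays for 10 members, against 2.08% of genes off chromosome X. These members are called low and high in what follows. On both arrays 212 members stayed within 0.3, and no member was past 0.3 in opposite directions. Without the 6 arrays that opposed their label, 30 members were low and 8 high, and for 252 members these arrays were the 2 highest of those kept. PIR5 (-0.30 and -0.997) and KAR2 (-0.35 and -0.31) were the last inside the lower limit, and ELO1 (-0.30 and -0.40) and LIA1 (-0.28 and -0.39) the first outside it. At the upper limit INO1 (0.36 and 0.31) and MEF2 (0.36 and 0.33) were the last inside, and BET4 (0.36 and 0.29) and YHC3 (0.28 and 0.45) the first outside.

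**Figure D3:**
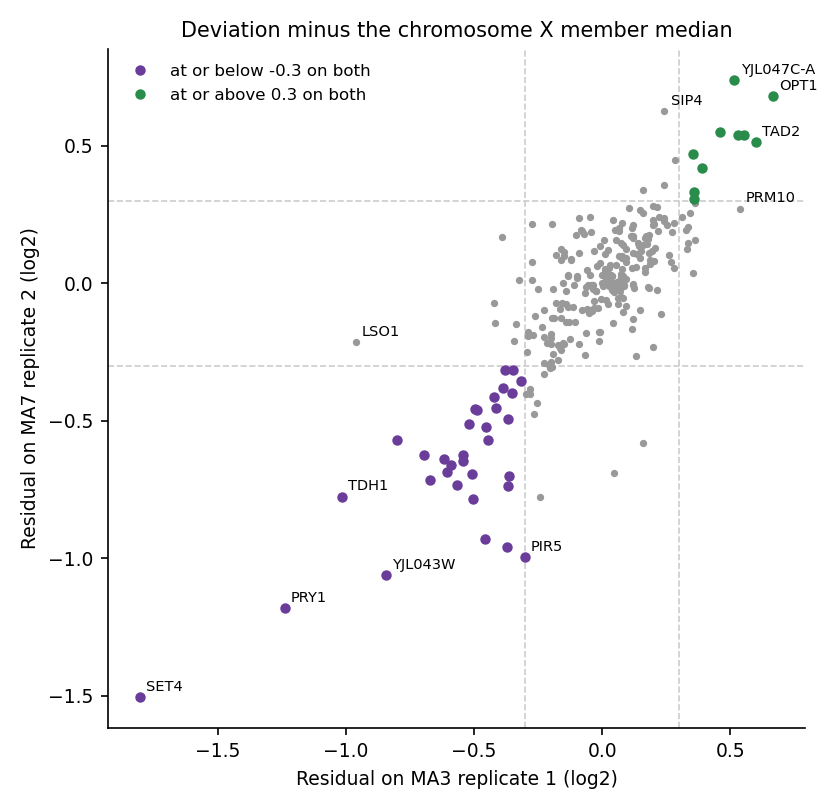
Residual of each member on MA3 replicate 1 (horizontal axis, log2) against MA7 replicate 2 (vertical axis, log2), with dashed lines at -0.3 and 0.3. The 33 members at or below -0.3 on both arrays reach down to SET4, and the 10 at or above 0.3 on both reach up to OPT1 and YJL047C-A.

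The 33 genes were mostly of very low or very high level. Members with a 16-array median under 8, 23 in all, had a median deviation of 0.38 on MA3 replicate 1 and 0.16 on MA7 replicate 2. It was 0.79 and 0.80 for the 23 members between 8 and 9, and 0.81 and 0.87 for the 71 between 9 and 10. The 85 members between 10 and 11 had 0.79 and 0.81, the 50 between 11 and 12 had 0.72 and 0.77, and the 35 at 12 or more had 0.46 and 0.48. Thus the lowest and the highest levels went with the smallest deviations.

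Among the 35 brightest members were 12 with a level of at least 13, whose medians were 0.35 and 0.33. Of the 33 genes with low residuals, 12 had a level under 8 and 13 a level of at least 12, so 8 came from the 229 members between these levels. Genes off chromosome X with a level of at least 12 had medians of -0.04 and -0.001, and those under 8 had -0.12 and -0.23. The response of the array at the ends of its range was not tested.

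With the median of members of like level subtracted in place of the overall median, a setting chosen after seeing the data, 16 members were at or below -0.3 on both arrays and 13 at or above 0.3. Of the 33 low members, 15 were among those 16, and of the 10 high members, 8 were among those 13. Of the 13 low members with a level of at least 12, 5 were still low: PRY1, TDH1, TIF2, BNA1 and ILV3.

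**Figure D4:**
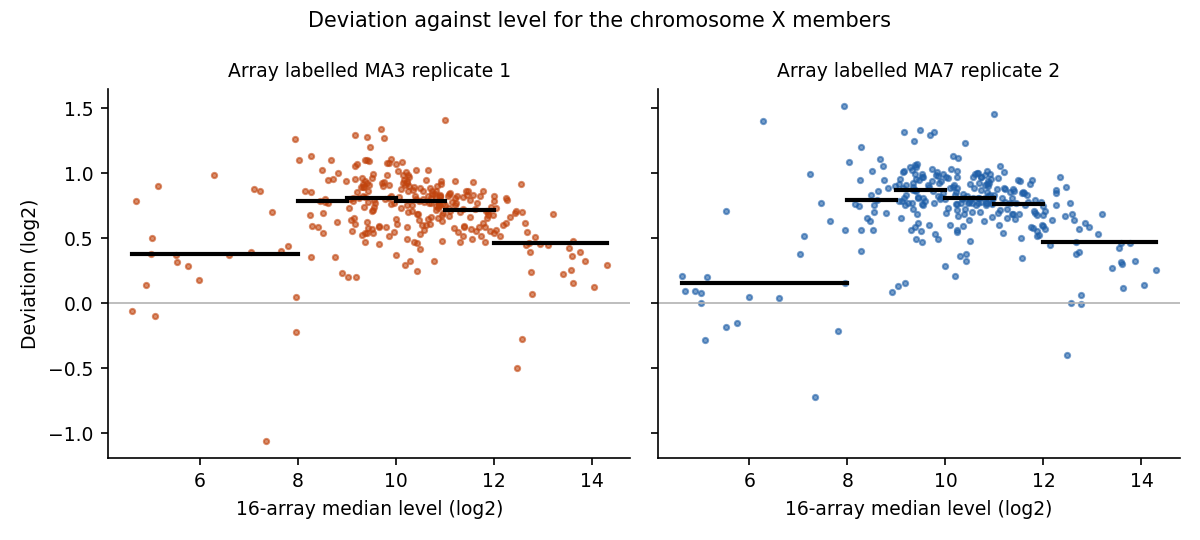
Deviation of each member (vertical axis, log2) against its 16-array median level (horizontal axis, log2) on MA3 replicate 1 and MA7 replicate 2; horizontal bars are medians of members within a band of level. The bars stand between 0.72 and 0.87 for levels from 8 to 12 and at 0.46 and 0.48 for levels of 12 or more.

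Abundant enzymes and chaperones made up most of the bright low members. SOD1, the copper-zinc superoxide dismutase, was 14.59 on MA3 replicate 1 and 14.56 on MA7 replicate 2, and 14.23, 14.29 and 14.40 as lowest, median and highest on the other 14 arrays. Both arrays thus lay above all others, yet by deviations of 0.29 and 0.26 only. HOM6 (homoserine dehydrogenase) was 14.19 on both arrays and between 13.76 and 13.91 on the others. RNR2, a small subunit of ribonucleotide reductase, was 13.63 and 13.67 against 13.19 to 13.49, and SSC1, the mitochondrial Hsp70, 13.84 and 13.90 against 13.45 to 13.72. KAR2, the Hsp70 of the endoplasmic reticulum, had deviations of 0.40 and 0.47, ERG20 (farnesyl pyrophosphate synthase) 0.36 and 0.47, and ADO1 (adenosine kinase) 0.43 on both. Each of these 7 genes was higher on both arrays than on any of the other 14, and against members of like level none kept a residual at or below -0.3.

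ILV3 and TIF2 were low even for their level. ILV3, the dihydroxyacid dehydratase of branched-chain amino acid synthesis, was 13.77 on MA3 replicate 1 and 13.74 on MA7 replicate 2, with 13.40, 13.61 and 13.73 as lowest, median and highest of the other 14. Its deviations were 0.16 and 0.12. TIF2, the translation initiation factor that unwinds RNA ahead of the ribosome, was 14.18 and 14.19 against 14.01 to 14.15 on the others. The TIF2 probe set is the 1 member probe set whose name ends in a suffix for several matching transcripts. TIF1, an almost identical gene on another chromosome, can share its signal, so the value of TIF2 alone is uncertain. Levels that both genes make up cannot be split between them.

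SET4, PRY1 and TDH1 were the members with a median level above 7 that stayed farthest below the chromosome. SET4, a SET-domain protein, was 6.29 on MA3 replicate 1 and 6.62 on MA7 replicate 2, with residuals of -1.80 and -1.50. Its lowest, median and highest values on the other arrays were 4.80, 7.38 and 8.05. It was low on MA5 replicate 1 (4.80), WT replicate 1 (4.93), MA1 replicate 1 (5.79) and MA6 replicate 1 (6.24) as well, so the values of the arrays with high chromosome X fell inside the range of the others.

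PRY1, a secreted sterol-binding protein, was 11.98 and 12.08, below its 16-array median by -0.49 and -0.40. It had 11.80, 12.63 and 13.01 on the other arrays, with WT replicate 1 the lowest and MA8 replicate 1 the highest. The second arrays of the same labels had 12.70 (MA3 replicate 2) and 12.30 (MA7 replicate 1). PRY1 was the member with a level of at least 8 whose larger residual was lowest, at -1.24 and -1.18, below its residual on each of the other 14 arrays. TDH1, an isoform of the glycolytic enzyme glyceraldehyde-3-phosphate dehydrogenase, was 12.29 and 12.57, with 11.37, 12.56 and 13.07 on the others. WT replicate 1 (11.37) and MA5 replicate 1 (11.40) were lower, so its levels overlapped. TDH2, its close relative on the same chromosome, was not analysed here.

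Further members of middle or high level had small deviations. BNA1, of NAD synthesis from tryptophan, had 0.07 on both arrays. Its other values spread from 11.73 on MA7 replicate 1 to 13.002 on MA3 replicate 2, the second arrays of the same labels. ARG3, the ornithine carbamoyltransferase of arginine synthesis, was 13.003 on MA3 replicate 1 and 12.76 on MA7 replicate 2, deviations of 0.24 and -0.00, and was lowest on MA5 replicate 1 (11.86). IME1, the inducer of meiosis, had 0.20 and 0.13 at a median level of 9.03. MNS1, a mannosidase of the endoplasmic reticulum that trims N-linked glycans, had 0.20 and 0.16, and NMD5, a nuclear import receptor, 0.25 and 0.32. HMS2, a protein similar to heat shock transcription factors, had 0.24 and 0.09, and ranged from 7.63 (MA1 replicate 1) to 10.05 (MA5 replicate 1) on the other arrays. GZF3, a GATA-type repressor of nitrogen-regulated genes, was 10.48 and 10.40 against 9.99 to 10.26 elsewhere, so it was highest on both arrays and still had residuals of -0.45 and -0.57.

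Several of these calls depended on the reference. Against the second array of the same label, 22 of the 33 low members were still low on both arrays. On MA7 replicate 2 the deviation of BNA1 was then 1.11, that of IME1 0.82 and that of HMS2 0.70, where the median of the members was 0.80. NMD5, YJR115W, TDA4, RSF2, KAR2, ADO1, ICS3 and IRC18 were no longer low either. Of the 10 high members 5 were still high, namely OPT1, SWE1, TAD2, YJR149W and YJL047C-A, while INO1, NCA3, YJL107C, MEF2 and CHS6 were not.

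How the low residuals of the 33 compared with those on the other 14 arrays differed among genes. For 19 of them the residual was lower on both arrays than on each of the other 14. This is a description, because the 33 were selected by these residuals. The median subtracted was 0.75 and 0.78 on the 2 arrays and between -0.03 and 0.02 on the others. A gene with an unchanged level therefore also gets a lower residual on the 2 arrays. ARG3, TDH1, BNA1, IME1, HMS2, SET4 and NMD5 were among the other 14 genes. The median SD over those 14 arrays was 0.23 for the 33 genes, 0.13 for all members and 0.12 for genes off chromosome X. For the 13 low members with a level of at least 12 it was 0.09, and for all members of that level 0.10. Of the 33, 10 were still highest on both arrays (ERG20, TIF2, GZF3, KAR2, RNR2, ILV3, SSC1, SOD1, ADO1 and HOM6).

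Low members that followed each other in the map order of members formed 7 pairs, which took in 14 of the 33 genes. Chromosome X genes that were set aside or not measured are missing from this order. The genes of a pair are therefore not always direct neighbours on the chromosome. The pairs were YJL077W-B with ICS3, LOH1 with IRC18, YJL027C with RNR2, SOD1 with ADO1, YJR115W with TDA4, MNS1 with NMD5, and YJR151W-A with PGU1. YJR115W had deviations of 0.36 and 0.40, and TDA4, the next member, 0.38 and 0.29. In the pair of MNS1 and NMD5 both genes were in the middle range of level, and both were in the low group against members of like level too. The 33 were spread over both arms, 18 on the left and 15 on the right, and the 10 high genes comprised 9 of the left arm and 1 of the right. Of all 287 members, 164 lay on the left arm and 123 on the right. Whether the high genes depart from that split was not tested. The median gene length was 1227 bases for all members, 1023 for the 33 and 1408.5 for the 10.

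OPT1 led the members that exceeded the chromosome. OPT1, a plasma membrane transporter of peptides and glutathione, was 12.41 on MA3 replicate 1 and 12.46 on MA7 replicate 2. The other 14 arrays had 10.31, 10.98 and 11.49 as lowest, median and highest, with MA6 replicate 1 lowest and MA5 replicate 1 highest. Its deviations of 1.41 and 1.46 correspond to 2.66-fold and 2.75-fold. SWE1, the kinase that delays entry into mitosis, was 11.04 and 11.08, against 9.42, 9.73 and 10.14 on the others. YJR149W was 10.68 and 10.80, against 9.29, 9.41 and 9.67. For these 3 genes the residual was higher on both arrays than on each of the other 14. This is a description, because the high genes were selected by these residuals. Their groups of levels did not overlap, which also held for 248 of all 287 members.

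The rest of the high group varied elsewhere too. The levels of TAD2, NCA3, CHS6, INO1, MEF2 and YJL107C did not overlap with those of the other arrays either, but their residuals did. TAD2, a subunit of the enzyme that edits adenosine in tRNA, was 11.03 and 10.98, and 9.38 to 10.47 on the others, with WT replicate 1 (10.31) and MA5 replicate 1 (10.47) next. NCA3, of the SUN family, was 10.46 and 10.48, with MA3 replicate 2 at 10.19 and MA6 replicate 1 at 7.54. CHS6, which brings chitin synthase to the cell surface, had deviations of 1.10 and 1.25, and MA1 replicate 1 (10.21) and MA6 replicate 1 (10.16) came next to its 10.46 and 10.62. INO1, the first enzyme of inositol synthesis, was 9.13 and 9.12, and 8.97 on MA6 replicate 1. MEF2, a mitochondrial translation factor, had deviations of 1.10 and 1.11, and YJL107C 1.14 and 1.20.

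PRM10, a pheromone-regulated membrane protein, BET4, a subunit of the enzyme that adds lipid anchors to Rab proteins, and YHC3, of the vacuole, were past 0.3 on 1 array only. PRM10 was 10.68 on MA3 replicate 1 and 10.45 on MA7 replicate 2, and MA1 replicate 1 (10.48) lay above the second of these. YHC3 was 11.43 and 11.63, with a narrow range of 10.25 to 10.51 elsewhere. In all, 16 members were at or above 1 on both arrays.

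**Figure D5:**
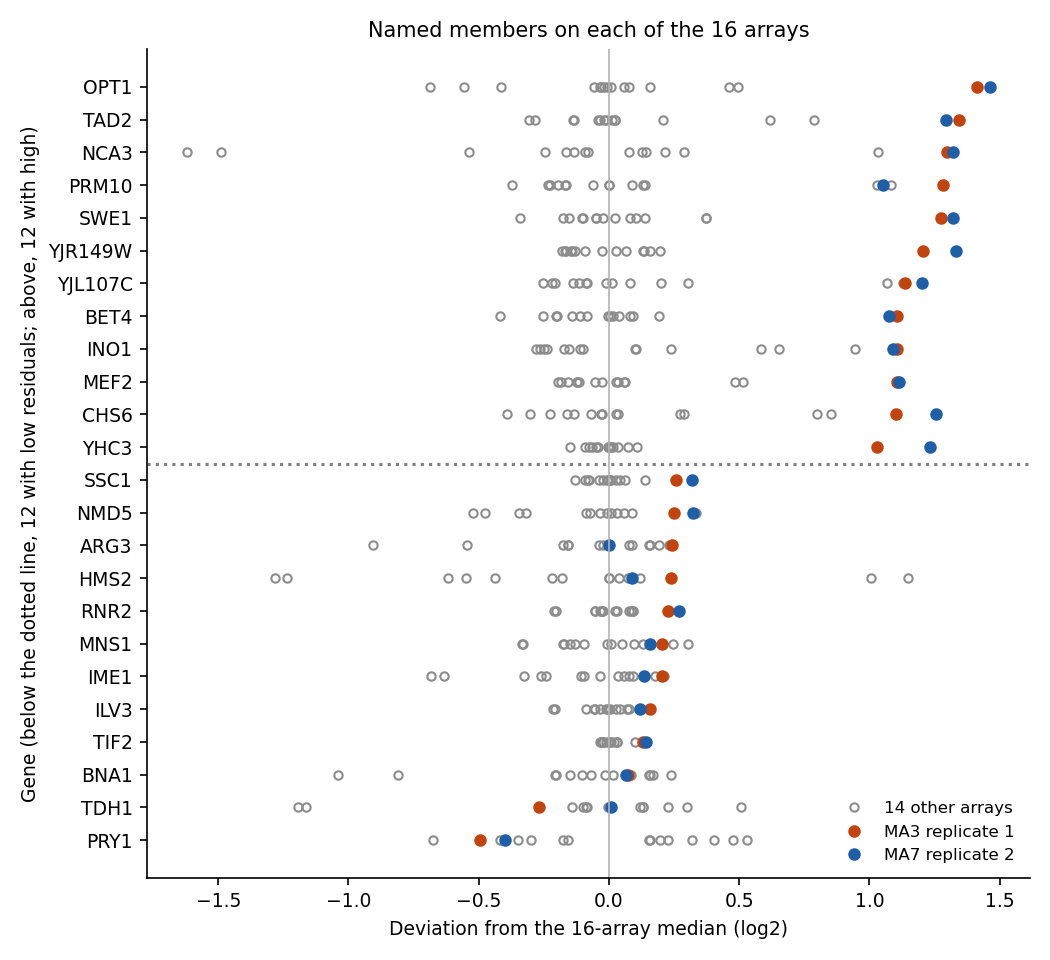
Deviation from the 16-array median (horizontal axis, log2) of 12 members with low and 12 with high residuals (vertical axis) on every array; filled points are MA3 replicate 1 (orange) and MA7 replicate 2 (blue), open points the 14 other arrays. Filled points lie right of all open points for the genes with high residuals except PRM10, for YJL107C by little. They lie within the range of the open points for BNA1, HMS2, IME1, MNS1, NMD5, PRY1 and TDH1, and for ARG3 on MA7 replicate 2. For RNR2, SSC1, ILV3 and TIF2 they lie right of all open points, for ILV3 and TIF2 by little.

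MNN11, a mannosyltransferase of the Golgi, UBP12, a ubiquitin protease, the kinase YAK1 and MHO1 were closest to the chromosome. MNN11 was 12.69 and 12.73 against 11.78 to 12.25, and its deviations were 0.74 and 0.78. UBP12 was 11.57 and 11.60 against 10.70 to 10.98. YAK1, which acts against growth when nutrients are scarce, had 0.77 and 0.78. MHO1 had 0.75 and 0.81, but its other values spread from 8.26 to 10.35, so its 10.29 and 10.36 were not apart from the rest.

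Of the members with a level under 8, SET4 and YJL043W had the lowest residuals and SIP4 and YJL047C-A the highest. YJL043W was 4.99 and 4.81, at the bottom of the scale. SIP4, an activator of gluconeogenic genes, was 7.27 and 7.69, against 5.72 to 7.14 elsewhere. YJL047C-A was 9.20 and 9.45, with 7.26, 7.92 and 9.40 on the others.

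Grouped by role, genes that copy, repair and segregate DNA stayed close to the chromosome. The 22 such genes had medians of 0.81 and 0.83, none was high, and RNR2 was the 1 low gene. The highest was POL31, a subunit of DNA polymerase delta, at 1.07 and 0.97. For all 22, these arrays were the 2 highest of the 16, which held for 248 of all 287 members. Among 24 genes of vesicle traffic and the vacuole none was low and CHS6 was high, with medians of 0.80 and 0.81. APS2, an adaptor subunit of clathrin coats, was lowest of these at 0.57 and 0.50. For all 24, too, these arrays were the 2 highest.

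Of 23 mitochondrial genes measured, SSC1 was low and MEF2 high (medians 0.81 and 0.83). Of 19 genes of RNA processing, ribosome assembly and translation, TIF2 was low and TAD2 high (0.81 and 0.77). The 6 genes of the nuclear pore and nuclear transport had 0.71 and 0.82, with NMD5 low and MOG1, a partner of the Ran GTPase, highest at 0.88 and 0.93. Of 15 signalling genes measured, SWE1 was high and none was low (0.77 and 0.77), and IML1, of a complex that restrains TORC1, was lowest at 0.45 and 0.60. All 15 had these arrays as the 2 highest. So had all 19 genes of RNA processing, ribosome assembly and translation, all 6 of lipid synthesis and all 10 membrane transporters.

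Transcription and chromatin genes had a lower median on the first array. Their 22 members had a median of 0.58 on MA3 replicate 1 and 0.78 on MA7 replicate 2, and 4 were low on both: GZF3, SET4, RSF2 and HMS2. Against members of like level the same medians were -0.13 and -0.01, and these 4 were still low.

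Amino acid synthesis had the lowest median of the 14 groups on each array, 0.49 on MA3 replicate 1 and 0.35 on MA7 replicate 2 over 9 genes. ARG3, ILV3 and HOM6 were low on both arrays, and of these ILV3 alone was still low against members of like level. MET5, a subunit of sulfite reductase, was highest at 0.84 and 0.70. Their median level was 11.69 (10.34 for all members), and against members of like level their medians were -0.20 and -0.25. No residual of the 9 was at or above 0.3 on either array.

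Enzymes of carbohydrate, nucleotide, redox and cofactor metabolism had 0.64 and 0.69 over 15 genes, with TDH1, BNA1, SOD1 and ADO1 low. FBP26, a fructose-2,6-bisphosphatase, was highest at 1.02 and 0.97. The 19 genes of glycosylation, secretory folding and cell wall had 0.69 and 0.78, with PIR5, PRY1, KAR2 and MNS1 low and the mannosyltransferase YUR1 highest at 0.99 and 1.01. Lipid synthesis, with 6 genes, had 0.75 and 0.70, and held both ERG20 (low) and INO1 (high). ELO1, a fatty acid elongase, was the lowest of these by mean residual, at 0.45 and 0.38.

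Mating and meiosis genes, 10 in number, had 0.66 and 0.63, with LOH1, IRC18 and IME1 low. LOH1 had a level of 4.90 and PRM10 was highest. The 10 membrane transporters had 0.69 and 0.72, from PHO90, a phosphate transporter, at 0.52 and 0.45 to OPT1. Of 14 genes of subtelomeric families 6 were measured by a probe set of their own, with 0.55 and 0.53. The median level of these 6 genes was 7.38. HXT8, at a level of 4.62, and PGU1, at 5.75, were low. AAD10, a putative aryl-alcohol dehydrogenase at the right end, had 0.94 and 0.55, and 11.21 on MA1 replicate 1 exceeded its 11.17 and 10.78.

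Of the genes that carry the substitutions of the study, 4 also lie on chromosome X without being members: CCT3 (substituted in MA3), CCT5 (MA5), CCT7 (MA7) and CCT8 (MA8). Their deviations on MA3 replicate 1 and MA7 replicate 2 were 0.75 and 0.94 for CCT3, 0.48 and 0.59 for CCT5, 0.43 and 0.66 for CCT7, and 0.56 and 0.61 for CCT8. Arrays labelled MA5 and MA8, whose substituted genes are on the same chromosome, had member medians of 0.02 and -0.01 (MA5) and of -0.03 and -0.02 (MA8).

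The comparison by strain sets the arrays labelled with each mutant against those labelled WT. WT replicate 2, both MA6 arrays and 1 array each of MA2, MA5 and MA8 are among the 6 that opposed their label. No fit left out all 6, so what each substitution does to these genes cannot be read from the fits. Linear models over 5498 probe sets (limma, 2 arrays a strain) called 0 of them in each of the 7 mutants against WT (0%), members included, at an adjusted p under 0.05. At an unadjusted p under 0.05, 5 of 287 members (1.74%) passed in MA3, where 4.69% of all probe sets did. In MA7 19 members (6.62%) passed, where 8.97% of all probe sets did. All 5 in MA3 and 18 in MA7 were higher than in WT, against 0.309% and 2.07% of all probe sets. MA3 and MA7 hold the 2 arrays chosen for their chromosome X values, so this direction is a description and no test. In the other mutants 1 member passed in MA1 (4.13% of all), 0 in MA2 (0.746%), 0 in MA5 (0.327%), 4 in MA6 (11.5%) and 2 in MA8 (4.06%). All 7 comparisons share the WT arrays.

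In MA3 the median log2 difference of the members against WT was 0.34, with 280 of 287 above 0, and in MA7 it was 0.36, with 266 above 0. Of the probe sets off chromosome X, 32.0% were above 0 in MA3 and 40.3% in MA7. The median SE of a member was 0.29. Without MA3 replicate 1 the MA3 median was -0.04, and without MA3 replicate 2 it was 0.74. Without MA7 replicate 2 the MA7 median was -0.05, and without MA7 replicate 1 it was 0.78. Each strain mean therefore joins an array with the shift and an array without it. In the other 5 mutants the medians lay between -0.04 and -0.01.

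UBX6, a protein with a UBX domain, had the largest moderated t of the members with a level of at least 8 in MA3. It was 11.14 on MA3 replicate 1 and 10.55 on MA3 replicate 2, and 9.68 and 10.39 on the WT arrays, which gave a log2 difference of 0.81 ± 0.32 (SE) with a limma adjusted p of 0.79. In MA7 it was 10.65 and 11.23, a difference of 0.91 ± 0.32 (limma adjusted p = 0.53). IML2 had a difference of 1.06 ± 0.37 in MA7 (limma adjusted p = 0.53), with 11.23 and 11.61 against 9.81 and 10.91. For both genes WT replicate 1 was the lowest of the 16 arrays. TRK1, the potassium transporter, had 0.47 ± 0.20 and YJL213W 0.56 ± 0.22 in MA3 (limma adjusted p = 0.79 each), and EAF6, of the NuA4 acetyltransferase, 0.75 ± 0.28 in MA7 (limma adjusted p = 0.53). None of these differences passed the test.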

How the data were processed

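The authors deposited log2 expression values per probe set for 16 Affymetrix Yeast Genome 2.0 arrays. Per the submitters' processing notes, Partek and RMA were used; versions are not stated. RMA corrects background, normalizes between arrays and summarizes probes, so values are relative and very dim or bright probe sets can be compressed. The probe annotation, updated through gene identifiers to R64 symbols, paired 5498 of 10928 probe sets with 1 S. cerevisiae gene (5449 genes). For 47 genes with several probe sets the one with the highest mean was used. The genome build of the array's design is not given in the labels or files, so the gene table served for names, lengths and order only, and no coordinates are given. Sequences were not analysed here.

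Groups came from the sample titles. Deviations, residuals (limit 0.3), runs in map order and counts were computed in Python 3.11.15 (numpy 2.4.6, pandas 2.3.3). limma 3.58.1 in R 4.3.3 fitted 1 mean per strain to all 16 arrays (8 residual and 2.02 prior degrees of freedom), with two-sided tests and Benjamini-Hochberg adjustment over 5498 probe sets. Both steps were checked on simulated data. Named genes were, of members with a level of at least 8, the 12 with the lowest and the 12 with the highest residuals on both arrays, the 4 closest to the median and the 3 with the largest moderated t in MA3 and in MA7. The lowest and the highest member of each group, by mean residual over both arrays, and 2 in each direction under 8 were added. Other genes were named after their values were seen. Members, arrays, groups and rules were chosen with earlier results of these data known, and p-values measure the spread between these arrays, which may be technical. The number of arrays limits the precision. Alternatives covered the reference, normalization, level, residual limit, gene set, model and single arrays.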

Additional observations from a re-analysis of the deposited data

How the results depend on the processing

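The median deviation of the members stayed between 0.67 and 0.85 on both arrays under every alternative run. On MA3 replicate 1 it was 0.76 against the median of the other 14 arrays, 0.67 against the mean of 16, 0.78 against MA3 replicate 2, 0.76 after quantile normalization, 0.82 after centring on genes off chromosome X, 0.72 at levels of at least 10, 0.72 with all chromosome X genes and 0.73 without the 6 arrays that oppose their label (chosen after seeing the data). On MA7 replicate 2 it was 0.80 against the other 14, 0.70 against the mean, 0.80 against MA7 replicate 1 and 0.85 after centring. The 33 members with low residuals became 15 at levels of at least 10, where fewer members are counted, 16 beyond 0.5, 19 where the residual also had to lie below those of the other 14 arrays, and 16 against members of like level. Against the second array of the same label 26 were low and 7 high, with 22 and 5 genes shared. The 10 with high residuals became 6 against the mean of 16 arrays (the cause was not tested), 2 at levels of at least 10, 25 beyond 0.2, 5 beyond 0.5 and 3 beyond the other 14 arrays. The 248 members highest on both arrays became 160 of the 170 members with a level of at least 10. Leaving out 1 of the other 14 arrays gave 32 to 34 low members, 9 or 10 high members and 248 to 252 highest on both arrays. For the 44 named genes no deviation of at least 0.3 turned its sign, and 576 of 616 recomputed values moved by less than 1 SD over the other 14 arrays. The SD is that of the gene itself, so genes that vary widely seldom count as moved. Averaging the probe sets of a gene is among the alternatives, and 1 member has more than 1 probe set, so most of those values could not move.

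Each mutant against WT had 0 calls in all 84 alternative fits, with a smallest adjusted p of 0.071 in a fit without 1 array, where a lone array is assumed to vary like the other strains. With the replicate number as a block 0 probe sets were called in any mutant, with 30 to 581 at an unadjusted p under 0.05. Same-numbered arrays deviated from their strain means with correlations between -0.66 and 0.93 over the 28 pairs of strains, with a median of 0.03. The number therefore did not pair the arrays in the same way across strains.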

Other observations

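The members on which the 2 arrays with high chromosome X differed most were mostly dim, and were chosen after their values were seen. LSO1 was 7.74 on MA3 replicate 1 and 8.52 on MA7 replicate 2. It was also the member with the widest spread on the other 14 arrays, from 4.998 on WT replicate 1 to 8.88 on MA5 replicate 2. SFC1, the mitochondrial carrier of succinate and fumarate, had a deviation of 0.90 on MA3 replicate 1 and 0.20 on MA7 replicate 2 at a level of 5.14. Of brighter members TRL1, the tRNA ligase, had 0.35 and 0.95, and SWI3, of the SWI/SNF chromatin remodeller, 0.47 and 1.00.

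FMP33, a mitochondrial protein, varied among the other arrays by more than the shift of the chromosome. WT replicate 1 had 7.90 and MA5 replicate 1 had 7.98, whereas MA1 replicate 1 had 10.48 and MA6 replicate 1 had 10.67. It was 10.37 and 10.41 on the arrays with high chromosome X. Over the members the distance from the lower to the upper quartile was 0.31 on both arrays with high chromosome X. WT replicate 1 and MA5 replicate 1 each had 0.32, and MA5 replicate 2, the narrowest, had 0.07.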
